A study of Mus musculus with 2 samples.

Results

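Interferon-stimulated antiviral effector genes were examined in RNA sequencing of bone marrow-derived macrophages with and without Tipe1. The set holds 36 genes named by symbol, chosen as antiviral effectors without the Gbp, Irg, Ifi200 and Irf families, although Ifi47 is itself an immunity-related GTPase. All 36 symbols were found among the 46095 genes of the count table. The KO library came from C57BL/6 macrophages labelled TIPE1-/-, which the design text describes as carrying LyzM-Cre and floxed Tipe1. The WT library came from C57BL/6 macrophages labelled wild type, described there as floxed Tipe1 without Cre. LyzM-Cre is expressed from the lysozyme locus Lyz2 in myeloid cells, so other cells in the culture keep Tipe1. Marrow cells of both genotypes were grown for 5 days in 100 ng/ml M-CSF, the growth factor that turns marrow progenitors into macrophages. Each genotype had 1 library, no interferon or other stimulus is named in the labels, and neither the age nor the number of mice is given there.

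Type I interferons bind a receptor of the IFNAR1 and IFNAR2 chains, which acts through the kinases JAK1 and TYK2 on transcription factors of the STAT family. These join IRF9 in the complex ISGF3, which binds the interferon-stimulated response element (ISRE) in target promoters. The genes it switches on encode proteins that bind, edit or degrade viral RNA, stop viral entry and release, or modify other proteins. Macrophages are known for a low standing expression of these genes in culture without infection.

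The ISRE core, TTTC followed by 2 bases of any kind and TTTC again, was searched on both strands, so that on the opposite strand it reads GAAA, 2 bases and GAAA, in RefSeq promoter windows of GRCm38.p6 from 250 bases before to 50 bases after each annotated gene start. Windows were listed for 28 of the 36 genes. The core was found in 12 of these 28 genes (42.9%), against 1079 of 27025 genes in the whole table (3.99%). It was also found in 17 of 34 other interferon-stimulated genes, a share not below that of the effectors. The core of the element of interferon gamma (GAS), TTC and GAA with 3 bases between them, was found in 8 of the 28 (28.6%). The share was 2582 of 27025 (9.55%) over all genes and 7 of 34 (20.6%) in the other interferon-stimulated genes. The cores can overlap, and a match is a description of the sequence only.

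The windows of the 4 genes with the largest KO over WT ratio among those with a core are printed first, 5′ to 3′ on the gene's strand, with each ISRE core in capitals. Adar, whose ratio was nearest to 1, follows without a core in the most upstream of its 3 listed windows. They lie at chr12:26456403-26456702 (minus strand) for Rsad2, chr19:34640639-34640938 (plus) for Ifit1, chr19:34583279-34583578 (plus) for Ifit3, chr14:59341281-59341580 (minus) for Phf11b and chr3:89714772-89715071 (plus) for Adar.
Rsad2: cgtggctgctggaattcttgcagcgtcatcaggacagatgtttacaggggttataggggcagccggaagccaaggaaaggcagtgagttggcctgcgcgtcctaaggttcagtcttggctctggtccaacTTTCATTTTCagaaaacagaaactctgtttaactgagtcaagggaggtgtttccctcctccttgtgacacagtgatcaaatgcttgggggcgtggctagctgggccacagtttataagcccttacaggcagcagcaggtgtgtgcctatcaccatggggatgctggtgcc
Ifit1: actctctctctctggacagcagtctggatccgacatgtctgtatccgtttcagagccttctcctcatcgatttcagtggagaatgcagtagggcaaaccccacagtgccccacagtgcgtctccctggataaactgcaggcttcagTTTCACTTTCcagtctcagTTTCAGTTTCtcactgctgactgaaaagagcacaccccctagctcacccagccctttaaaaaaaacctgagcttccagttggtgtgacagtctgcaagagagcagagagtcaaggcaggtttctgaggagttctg
Ifit3: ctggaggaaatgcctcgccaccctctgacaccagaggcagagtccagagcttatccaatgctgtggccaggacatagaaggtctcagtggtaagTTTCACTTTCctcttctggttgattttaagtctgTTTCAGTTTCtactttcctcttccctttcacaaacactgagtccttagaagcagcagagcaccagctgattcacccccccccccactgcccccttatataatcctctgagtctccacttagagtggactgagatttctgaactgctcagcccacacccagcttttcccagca
Phf11b: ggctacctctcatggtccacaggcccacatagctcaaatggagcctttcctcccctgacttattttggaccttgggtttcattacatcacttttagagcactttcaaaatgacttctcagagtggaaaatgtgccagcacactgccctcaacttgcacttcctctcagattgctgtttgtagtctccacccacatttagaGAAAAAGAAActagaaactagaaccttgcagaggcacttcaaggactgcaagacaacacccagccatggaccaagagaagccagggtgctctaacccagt
Adar: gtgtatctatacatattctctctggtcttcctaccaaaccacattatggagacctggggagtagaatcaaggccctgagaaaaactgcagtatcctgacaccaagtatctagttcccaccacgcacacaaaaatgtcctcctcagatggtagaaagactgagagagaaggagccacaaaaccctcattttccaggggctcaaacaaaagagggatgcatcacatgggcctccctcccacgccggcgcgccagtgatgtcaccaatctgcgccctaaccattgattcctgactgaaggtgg

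Ifit1 and Ifit3 hold the same pair of cores, TTTCACTTTC followed by TTTCAGTTTC, while Rsad2 has TTTCATTTTC. Shorter stretches show where cores run into each other, and were chosen after the matches were seen. Oas1a (chr5:120907516-120907555) and its close relative Oas1g (chr5:120887604-120887643) share the same overlapping pair just before the start. Bst2 (chr8:71537573-71537612) has a pair farther upstream, and Isg15 (chr4:156200849-156200908) has 3 cores in a row. These stretches are printed on the gene's strand, the minus strand of the chromosome. Their cores lie on the opposite strand and so read from GAAA to GAAA.
Oas1a: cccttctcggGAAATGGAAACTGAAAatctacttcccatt
Oas1g: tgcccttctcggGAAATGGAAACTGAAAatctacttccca
Bst2: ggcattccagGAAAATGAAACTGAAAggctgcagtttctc
Isg15: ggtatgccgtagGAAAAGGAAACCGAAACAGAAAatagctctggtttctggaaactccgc

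**Figure D1:**
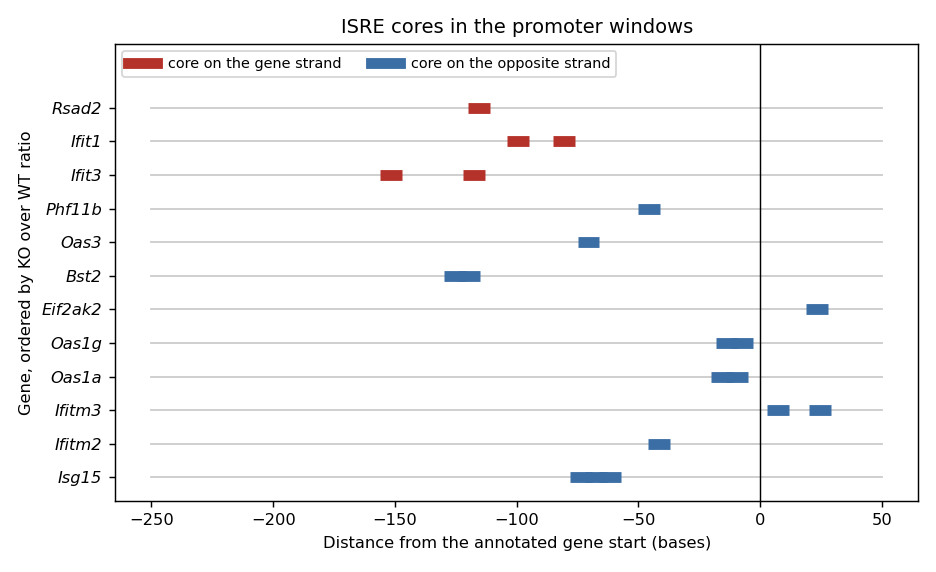
Position of each ISRE core in the promoter windows of the 12 genes that hold one, as distance in bases from the annotated gene start, with red for the gene's strand and blue for the opposite strand. Genes run down the page by KO over WT ratio, with Isg15, which has no ratio, at the bottom; the cores of Eif2ak2 and Ifitm3 lie after the start and the others before it.

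Levels are given as CPM, counts per 1e6 reads after scaling by TMM (trimmed mean of M-values), and ratios as KO CPM over WT CPM with a 95% counting interval in parentheses. The libraries held 15815956 counts for KO and 11782664 for WT. With 1 library per genotype no difference has a replicate check, no test was run, and intervals cover counting error only. Tnfaip8l1, which encodes TIPE1, had 3 reads in KO and 21 in WT, and the exons that Cre removes are not given in the labels. All 15 macrophage markers looked for had reads, such as Cd68 at 1589 CPM in KO and 1493 CPM in WT.

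The antiviral effectors were higher in the KO library, and none was lower. A gene was tested when it averaged at least 1 CPM over both libraries, and 35 of the 36 were, each with at least 1 CPM in the WT library too. All 35 had an interval above 1, as did 22.8% of the 12495 tested genes. A gene was called when it was at least 1.5-fold apart on the log2 scale with 0.5 CPM added and its interval excluded 1. By that rule 21 of 35 were called higher and 0 lower, whereas 6.16% of all tested genes were called higher and 6.87% lower. At 2-fold, 7 of 35 were called higher and 0 lower, against 2.02% and 3.95% of all tested genes. The median log2 ratio of the 35 was 0.64, against 0.01 over all tested genes. Scaled by total counts instead, these medians were 0.57 and -0.06, and 17 effectors were called higher. Scaled by macrophage marker counts, they were 0.87 and 0.24, with 32 effectors called higher, and 1557 of all tested genes were called higher and 591 lower, against 770 and 858 with TMM. That scaling rests on Lyz2, the locus that carries the Cre, with 123870 reads in KO and 180667 in WT. Without Lyz2 the macrophage markers summed to 24703 CPM in KO and 23536 CPM in WT, and scaling by them gave medians of 0.57 and -0.06 and 17 effectors called higher, a setting added after the data were seen. That sum still holds Adgre1, at 2554 CPM in KO and 1064 CPM in WT, and a scaling without Adgre1 was not run. Reads summed over all 36 genes came to 7661 CPM in KO and 4829 CPM in WT, a ratio of 1.59 (1.57 to 1.60). In these bulk libraries, fewer cells that express a gene and less RNA per cell cannot be told apart.

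**Figure D2:**
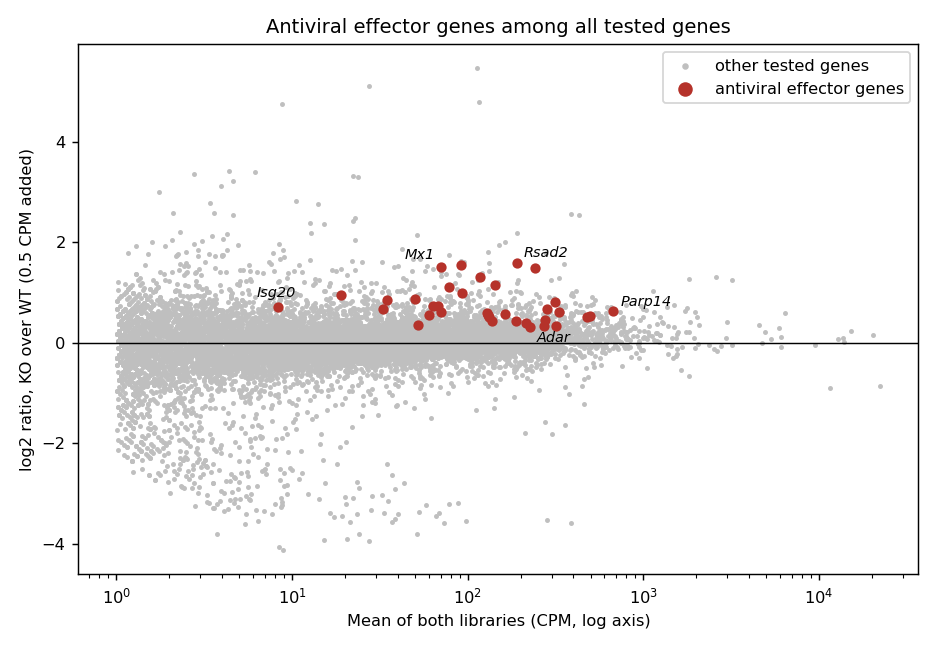
Log2 ratio of KO over WT, with 0.5 CPM added, against the mean CPM of both libraries on a log axis, for all 12495 tested genes, with the 35 tested antiviral effectors in red and other genes in grey. The effectors lie between 0.31 and 1.58, all above 0, and the highest, Rsad2, lies above 99.4% of tested genes.

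Viperin and its neighbour led the set. Rsad2 encodes viperin, which turns CTP into a chain terminator of viral RNA polymerases, and had 285 CPM in KO and 95 CPM in WT, a ratio of 3.0 (2.81 to 3.20). Cmpk2, a mitochondrial nucleotide kinase gene next to Rsad2 on chromosome 12, had 137 CPM in KO and 46.7 CPM in WT, a ratio of 2.93 (2.67 to 3.22). The intervals of the pair overlap. Mx1, a dynamin-like GTPase gene, had 104 CPM in KO and 36.3 CPM in WT, a ratio of 2.87 (2.58 to 3.20). Its chromosome 16 neighbour Mx2 had 25.3 CPM in KO and 12.8 CPM in WT, a ratio of 1.97 (1.63 to 2.39) whose interval lies below that of Mx1. RefSeq lists both Mx genes as transcribed pseudogenes in this assembly, which is of the C57BL/6J strain, so their reads are of pseudogene transcripts. Ifi44, an interferon-induced gene of incompletely known function, had 79.8 CPM in KO and 47.6 CPM in WT, and the GTPase gene Ifi47 had 40.6 CPM in KO and 25.3 CPM in WT. All 6 genes of this nucleotide and GTPase group were called higher.

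The Ifit genes, whose proteins bind viral RNA with abnormal ends and block its translation, came next. Ifit2 had 355 CPM in KO and 126 CPM in WT, a ratio of 2.81 (2.65 to 2.98). Ifit1, which recognises caps that lack methylation, had 168 CPM in KO and 68.1 CPM in WT, a ratio of 2.47 (2.28 to 2.67). Ifit3, a partner of the others, had 196 CPM in KO and 87.8 CPM in WT, a ratio of 2.23 (2.08 to 2.40). The intervals of Ifit2 and Ifit3 are apart, while that of Ifit1 overlaps both. The 3 genes lie within one stretch of chromosome 19 (GRCm38, 34550550 to 34650009). In GENCODE M21, 51.2% of the 50-base words of the longest Ifit3 transcript also occur in another gene, Ifit3b, so the split of reads between this pair is uncertain. Ifit3b itself had 29.8 CPM in KO and 11.3 CPM in WT, a ratio of 2.63 (2.17 to 3.20).

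The oligoadenylate synthetases, which sense double-stranded RNA and activate RNase L, had smaller and unequal ratios. Oas3 had 401 CPM in KO and 230 CPM in WT, a ratio of 1.75 (1.67 to 1.83). Of the set's own 4 Oas genes, which lie on a stretch of chromosome 5 (120730333 to 120907544), Oas3 was the only one called. Its neighbour Oas2 had 316 CPM in KO and 232 CPM in WT, a ratio of 1.36 (1.30 to 1.43), apart from that of Oas3. Oas1a had 155 CPM in KO and 106 CPM in WT, and Oas1g had 71.4 CPM in KO and 48.3 CPM in WT. These are close copies, with 57.6% of the Oas1a and 54.7% of the Oas1g words shared with other genes, and their ratios of 1.46 and 1.48 did not reach the call.

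The Oas-like genes, a second pair on chromosome 5, differed from each other. Oasl1, whose product limits IRF7 translation in mice, had 107 CPM in KO and 49.3 CPM in WT, a ratio of 2.16 (1.97 to 2.38). Oasl2, which encodes an active synthetase in mice, had 563 CPM in KO and 397 CPM in WT, a ratio of 1.42 (1.37 to 1.47). Per kilobase of GENCODE M21 exons Oasl1 stood at 40.9 CPM in KO and 18.9 CPM in WT, and Oasl2 at 88.4 CPM in KO and 62.3 CPM in WT. The gene with the lower level thus had the larger ratio, with intervals apart, and neither transcript shares a 50-base word with another gene.

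Of the 3 remaining RNA-directed effectors, Eif2ak2 and Isg20 were called and Adar was not. Eif2ak2, which encodes the kinase PKR that stops translation on sensing double-stranded RNA, had 156 CPM in KO and 103 CPM in WT, a ratio of 1.51 (1.41 to 1.62). Isg20, an RNA exonuclease gene and the one with the lowest level per kilobase of the 35, had 10.5 CPM in KO and 6.21 CPM in WT, a ratio of 1.69 (1.28 to 2.25). Adar, the RNA-editing deaminase that keeps cellular double-stranded RNA from being sensed, had 249 CPM in KO and 201 CPM in WT, a ratio of 1.24 (1.18 to 1.30). Adar shares 16.8% of its exonic bases with Chrnb2 on the opposite strand, which had 20 reads in KO and 18 in WT.

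**Figure D3:**
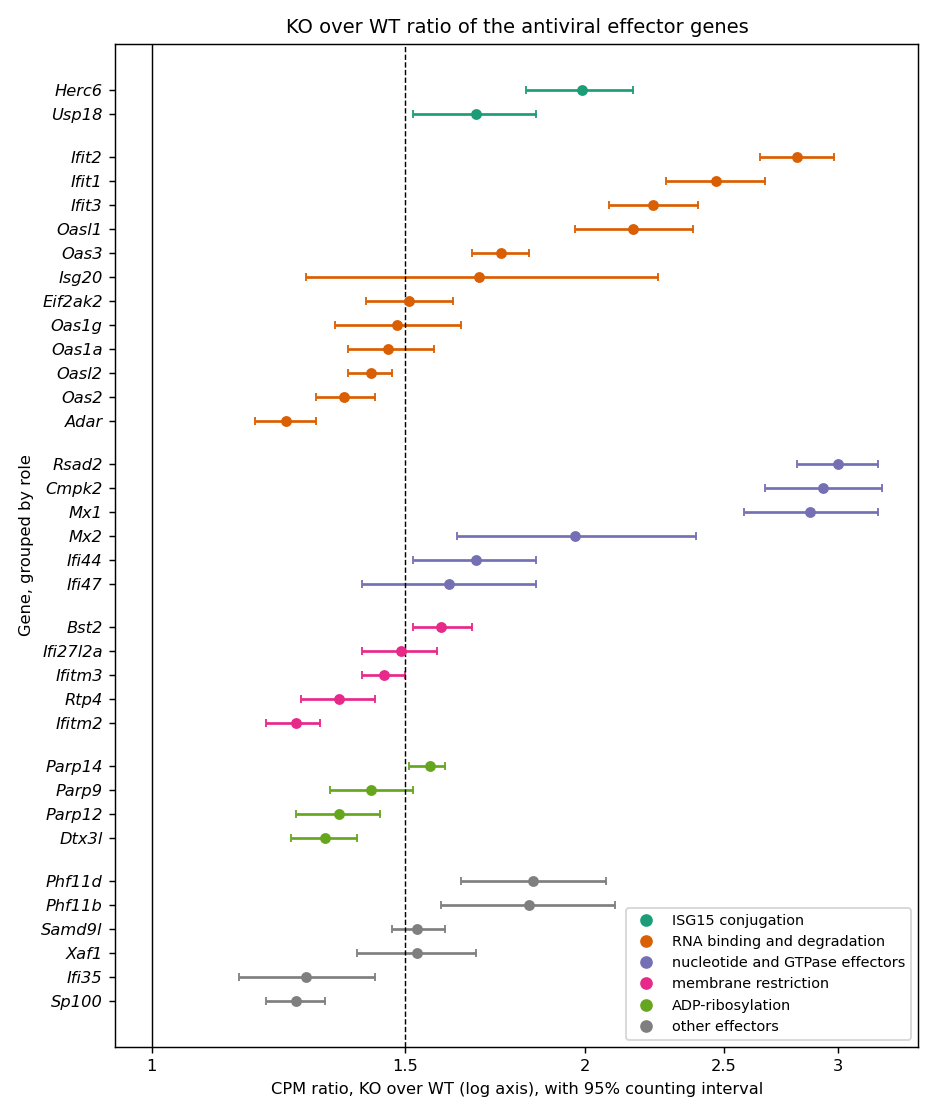
Ratio of KO CPM over WT CPM on a log axis with its 95% counting interval for the 35 tested genes, grouped and coloured by role, with lines at 1 and 1.5. Rsad2, Cmpk2, Mx1 and Ifit2 stand near 3 at 3.0, 2.93, 2.87 and 2.81, and Adar, the lowest, at 1.24 is still above 1.

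The ISG15 system attaches a ubiquitin-like tag to proteins. Usp18, which removes the tag and also damps the interferon receptor, had 85.3 CPM in KO and 50.8 CPM in WT, a ratio of 1.68 (1.52 to 1.85). Herc6, the main ISG15 ligase gene in mice, had 123 CPM in KO and 62.1 CPM in WT, a ratio of 1.99 (1.82 to 2.16). Herc6 shares 23.8% of its 50-base words with the overlapping model Gm45193. Isg15 itself had 2 reads in KO and 0 in WT, under the limit of 3 counts, which is 0.194 CPM in KO and 0.248 CPM in WT, and no ratio is given. The next least counted gene of the set, Isg20, had 162 reads in KO and 75 in WT. Of the Isg15 words, 3.96% occur in another gene of GENCODE M21, and gene copies outside that annotation were not compared. Since the counting settings are not given, the near absence of Isg15 counts is not read as absence of its RNA.

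Of the 5 membrane-associated effectors, 4 had the highest levels of the set per kilobase of exons. Ifitm3, which blocks fusion of viruses in endosomes, led both libraries at 865 CPM per kb in KO and 596 CPM per kb in WT. Its neighbour Ifitm2 followed at 538 CPM per kb in KO and 428 CPM per kb in WT. The ratio was 1.45 (1.40 to 1.5) for Ifitm3 and 1.26 (1.20 to 1.31) for Ifitm2, neither called, with intervals apart. Of the Ifitm2 words, 48.5% occur in other genes, so its counts may include or lack reads of copies. Bst2, the tetherin that holds budding virus at the cell surface, had 347 CPM in KO and 218 CPM in WT, and its ratio of 1.59 (1.52 to 1.67) was the only call of the 5 in this group. Ifi27l2a, which encodes a small hydrophobic protein, had 195 CPM in KO and 131 CPM in WT, and Rtp4, a receptor-transporting protein gene, had 216 CPM in KO and 160 CPM in WT.

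Of the 4 ADP-ribosylation genes, Parp14 was called and the other 3 were not. Parp14, a mono-ADP-ribosyltransferase gene and the effector with the most reads in both libraries, had 823 CPM in KO and 529 CPM in WT, a ratio of 1.56 (1.51 to 1.60). Dtx3l, a ubiquitin ligase gene, had 245 CPM in KO and 186 CPM in WT, and Parp9, whose product pairs with DTX3L, had 156 CPM in KO and 110 CPM in WT. Dtx3l and Parp9 are read in opposite directions beside Parp14 on chromosome 16 and share 458 exonic bases, so without a stated strand setting some reads may fall on the wrong one. The ratio of Dtx3l, 1.32 (1.25 to 1.39), lies below that of Parp14, and the ratio of Parp9, 1.42 (1.33 to 1.52), overlaps both. Parp12, another mono-ADP-ribosyltransferase gene, had 158 CPM in KO and 117 CPM in WT.

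Of the 6 remaining effectors, 4 were called. The PHD finger genes Phf11b and Phf11d, neighbours on chromosome 14, had 45.1 and 64.8 CPM in KO and 24.7 and 35.2 CPM in WT. Their ratios of 1.83 and 1.84 were close, but 47.0% of the Phf11b words occur in other genes, mainly Phf11a and Phf11c. Samd9l, a gene that restricts poxviruses and growth factor signalling, had 398 CPM in KO and 260 CPM in WT. Xaf1, a partner of the apoptosis inhibitor XIAP, had 84.6 CPM in KO and 55.4 CPM in WT. Sp100, a nuclear body protein gene, had 304 CPM in KO and 242 CPM in WT, and Ifi35 had 58.3 CPM in KO and 45.5 CPM in WT, with ratios of 1.26 and 1.28 below the call.

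**Figure D4:**
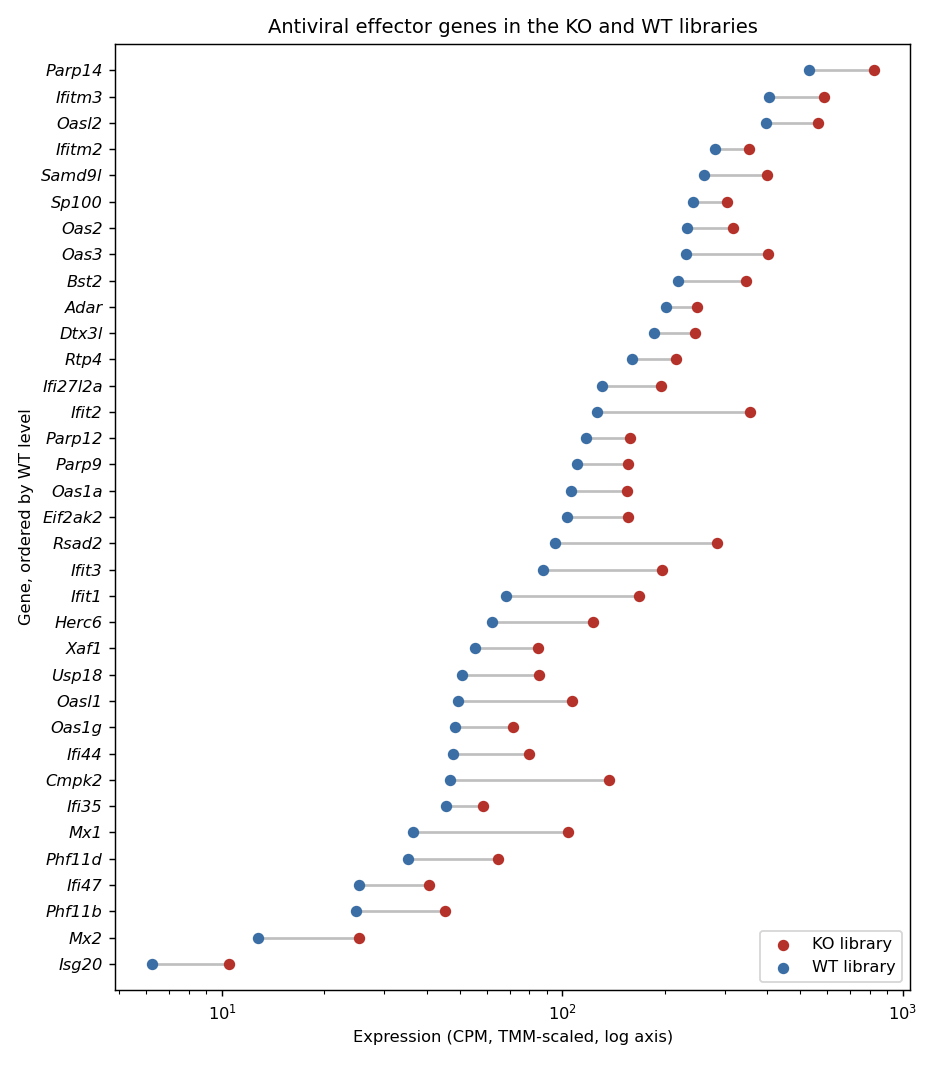
Expression of the 35 tested genes in CPM on a log axis, KO library in red and WT library in blue, ordered by WT level. The red point lies to the right in every row, with levels from 10.5 to 823 CPM in KO and from 6.21 to 529 CPM in WT.

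The order of the ratios is resolved in part. Between each gene and the next in the order the intervals overlapped, in all 34 neighbouring pairs, while over all 595 pairs of genes 358 had intervals apart. Spearman's rho between mean CPM and log2 ratio was -0.35 over the 35 genes, which share the same 2 libraries, and 0.17 over all tested genes. Of the 17 genes with the lower mean CPM, not adjusted for length, 14 were called, and of the 17 with the higher mean CPM 7. Over all tested genes 770 of 12495 were called higher, and 406 of 8379 at a mean of at least 10 CPM. Shares at levels matching the 2 groups were not computed. The 11 tested genes with an ISRE core had a median log2 ratio of 0.67 and the 16 with a window but no core 0.64. The 23 tested genes with under 5% of their words shared had a median of 0.64 and 15 calls, beside 6.16% of all tested genes called higher.

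Upstream of the effectors, no receptor gene, 1 signalling gene and 5 sensing genes were called higher, out of 5, 12 and 16 tested, beside the 6.16% of all tested genes called higher. The lists of pathway genes were chosen, as were the effectors, with earlier results of these data known. Of 11 interferon genes looked for, Ifnb1, which encodes interferon beta, had 6 reads in KO and 0 in WT, and the other 10 were at 0 in both libraries. The counting interval of the Ifnb1 ratio reaches down to 0.922, so a difference was not detectable at this depth. Of 5 tested receptor genes none was called, and their median log2 ratio was -0.08. It was 0.15 with scaling by macrophage marker counts, and -0.15 with Lyz2 left out of those markers or with total counts. Ifnar1 had 279 CPM in KO and 265 CPM in WT, and Ifnar2 158 CPM in KO and 173 CPM in WT. The receptor genes of interferon gamma stood at 192 CPM in KO and 199 CPM in WT for Ifngr1 and at 214 CPM in KO and 233 CPM in WT for Ifngr2. Il10rb, a chain shared with the interferon lambda receptor, had 257 CPM in KO and 272 CPM in WT, while Ifnlr1 had 12 reads in KO and 13 in WT and was not tested.

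Of 12 genes of JAK, STAT and IRF signalling 1 was called higher and 0 lower, with a median log2 ratio of 0.24. Irf7, the factor that amplifies interferon production, had 592 CPM in KO and 359 CPM in WT, a ratio of 1.65 (1.59 to 1.71). Stat2, a STAT factor gene, had 363 CPM in KO and 252 CPM in WT, a ratio of 1.44 below the call. Irf8, a factor of the macrophage and dendritic lineages, had 249 CPM in KO and 310 CPM in WT. Of 7 negative regulators, Ptpn6, which encodes the phosphatase SHP-1, was the single gene called, at 513 CPM in KO and 336 CPM in WT. Its ratio was 1.53, and it was not called when libraries were scaled by total counts or by macrophage markers without Lyz2. Ptpn11, Ptpn2 and Socs3 had log2 ratios of 0.26, 0.13 and -0.05, and the median of the 7 was 0.03.

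Of 16 genes of nucleic acid sensing 5 were called higher and 0 lower, with a median of 0.33. They were Ikbke, a kinase gene that activates IRF3 and IRF7, at 508 CPM in KO and 262 CPM in WT, the Z-nucleic acid sensor gene Zbp1 at 107 CPM in KO and 60.5 CPM in WT, and the RIG-I-like receptor genes Dhx58, Ddx58 and Ifih1. These 3 had ratios of 1.65, 1.61 and 1.58 and are themselves interferon-stimulated. Of 36 tested other interferon-stimulated genes, 14 were called higher and 0 lower, with a median of 0.54, and 35 had a log2 ratio above 0, as did 51.8% of all tested genes. Among them were Ifi205 at 18.2 CPM in KO and 7.95 CPM in WT, Gbp2 at 63.1 CPM in KO and 29.7 CPM in WT, Gbp5 at 14.8 CPM in KO and 7.45 CPM in WT and Ms4a4c at 57.2 CPM in KO and 32.9 CPM in WT. The 14 called include Psmb9 (1.81 CPM in KO, 0.58 in WT) and Igtp (2.53 CPM in KO, 0.828 in WT). Both passed the filter only through the KO library. At a mean of at least 10 CPM, 11 of 31 were called higher, beside 406 of 8379 tested genes. Of 23 tested relatives of the effectors outside the set, 5 were called higher and 0 lower, with a median of 0.29. Besides Ifit3b these were Ifit1bl1 (2.89), Phf11a (2.64), Sp140 (1.98) and Oas1h (2.74, at 28 reads in KO and 8 in WT), where the number is the KO over WT ratio. Oas1h, at 0.662 CPM in WT, also passed the filter only through the KO library.

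**Figure D5:**
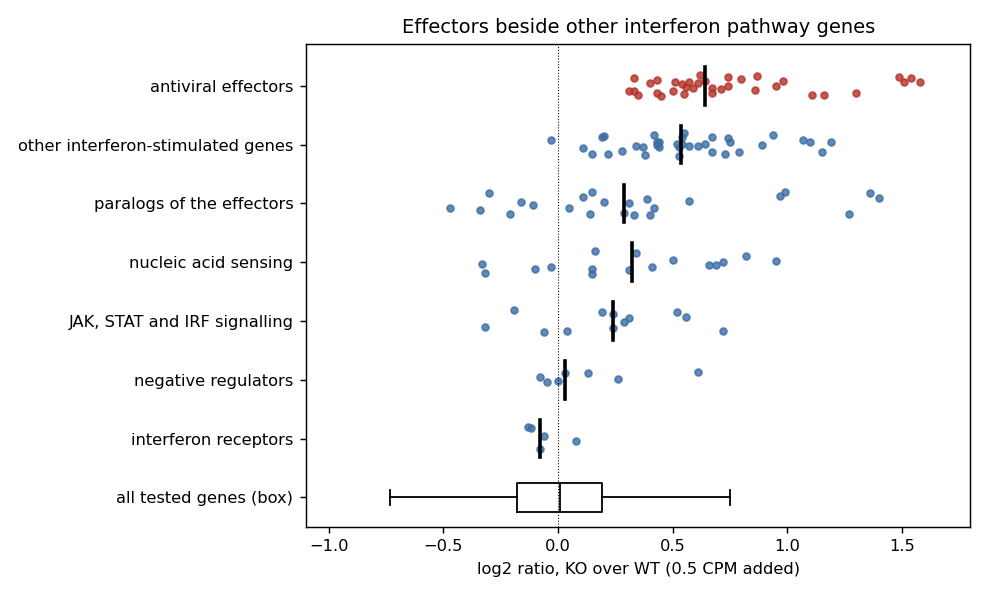
Log2 ratio of KO over WT, with 0.5 CPM added, for tested genes of each list (points, with the median as a black bar) above a box of all 12495 tested genes, whose whiskers reach 1.5 times the quartile range. The antiviral effectors (red) and other interferon-stimulated genes lie nearly all to the right of 0, with medians of 0.64 and 0.54, and the receptors lie around it at -0.08, or 0.15 with scaling by macrophage marker counts and -0.15 with Lyz2 left out of them.

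Markers of other cells also differed between the libraries, and their part in the effector result was not tested. The calls below stand beside 6.16% of all tested genes called higher and 6.87% called lower, and several lists hold few tested markers. The sum of 21 fibroblast and stromal markers was 217 CPM in KO and 2361 CPM in WT, with 19 of 20 tested markers called lower in KO and Tagln at 0 in both. The sum of 8 monocyte markers was 371 CPM in KO and 805 CPM in WT with 4 called lower, and that of 12 neutrophil markers 848 CPM in KO and 1129 CPM in WT with 4 of 11 called lower. Plasmacytoid dendritic cells are strong producers of interferon and carry Bst2. The sum of their 9 markers, mostly Tcf4, was 114 CPM in KO and 203 CPM in WT. Of 4 tested markers 3 (Tcf4, Runx2 and Spib) were called lower in KO. The remaining tested marker, Ccr9, was not called, with 20 reads in KO and 12 in WT. Cox6a2 was not tested, with 16 reads in KO and 10 in WT. Siglech had 0 reads in KO and 1 in WT, and Klk1, Pacsin1 and Cd209d were at 0 in both. The 8 dendritic markers summed to 4.08 CPM in KO and 7.62 CPM in WT, with 1 of 2 tested markers lower. The 7 B cell markers summed to 2.46 CPM in KO and 12.7 CPM in WT, with 4 of 4 tested lower. Cd209a and Ighm, from these lists, were at 0 in both libraries. The 10 T and NK cell markers, mostly Cd4, summed to 37.9 CPM in KO and 26.4 CPM in WT, with Trac at 0 in both. Of 6 tested markers 2 were called higher, Cd4 (27.6 CPM in KO and 17.6 CPM in WT) and Cd8a. The rest were not called, with KO over WT ratios of 0.783 for Cd3e and Gzma, 0.992 for Cd3g and 1.2 for Nkg7. The 15 macrophage markers summed to 32732 CPM in KO and 38494 CPM in WT, with 2 called higher and 2 lower and a median log2 ratio of -0.07. Those called included Adgre1 and Adgre4, higher in KO, and Lyz2, lower in KO.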

How the data were processed

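RNA of cultured macrophages was sequenced from 1 KO and 1 WT library, and groups were taken from the sample titles. The values were raw read counts per gene symbol, deposited by the authors in 1 table, per the file headers. The submitters' processing notes name HISAT2 and GRCm38, with no version of the aligner. How reads were counted and filtered, with which annotation and strand setting, is not given in the sources used here. For overlapping or near-identical genes, counts may therefore fall on the wrong gene. Every row has a gene name.

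TMM over all genes (edgeR 4.0.16, R 4.3.3) gave the effective library sizes. Each KO over WT ratio carries a 95% Clopper-Pearson interval, exact for how a gene's reads divide between the libraries (scipy 1.17.1). PCR reads are not independent molecules here, so intervals and the limit of 3 counts cover counting error only. With 1 library per genotype no p-value was computed. The calculation was tested on simulated counts with known folds, which held counting error only and no variation between cultures. It checks the arithmetic and cannot show how far calls from 1 library per genotype would repeat. Genes were tested from a mean of 1 CPM over both libraries. Alternatives were other scalings (total counts, DESeq2 size factors, upper quartile, TMM without stromal markers, macrophage marker counts with and, added after the data were seen, without Lyz2), other added CPM and other filters.

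The members, lists and alternatives were chosen with earlier results of these data known. All 36 members are named. Of each pathway list the rule names up to 4 genes with the largest log2 ratio in either direction among those averaging 5 CPM or more, and all receptors and ligands with a read. Of cell type lists up to 3 were allowed. Ifih1, Oas1h, Psmb9, Igtp, Cd68, Chrnb2, Runx2, Spib, Ccr9, Cox6a2, Cd8a, Cd3e, Gzma, Cd3g, Nkg7 and the cell type markers at or near 0 fall outside that rule. They were chosen with their values in view. A few genes within the rule are not reported here. The macrophage marker listed as Emr4 was matched by its current RefSeq symbol, Adgre4. Gene lengths, overlaps and shared 50-base words came from GENCODE M21 (GRCm38), and the word length is not the read length, which is not given. Positions and promoters came from RefSeq (GRCm38.p6).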

Additional observations from a re-analysis of the deposited data

How the results depend on the processing

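The median of the effectors was 0.87 on the log2 scale when libraries were scaled by macrophage marker counts, a setting that moved the median of all tested genes to 0.24, against 0.01 with TMM. With it 32 effectors, 1557 of all tested genes, 27 other interferon-stimulated genes, 9 relatives and 3 signalling genes were called higher. The medians were then 0.76, 0.53 and 0.48 for those 3 lists and 0.56 for sensing genes, the summed log2 ratio was 0.90 (0.67 with TMM), and the receptor median changed sign to 0.15. Lyz2 set that shift: with it left out of the markers, a setting added after the data were seen, the summed log2 ratio was 0.60, the receptor median -0.15, 17 effectors were called and 0 negative regulators. With total counts the summed log2 ratio was 0.59, the receptor median -0.15, 17 effectors were called and Ptpn6 was not, leaving 0 negative regulators. At a mean of at least 10 CPM 2 relatives were called, and 406 of all tested genes were higher and 210 lower. At 2-fold 7 effectors were called, with 252 of all tested genes higher and 494 lower, and with the interval bound at 1.5-fold 16 effectors, with 357 higher and 509 lower. The stricter ISRE core, with AG before the first TTTC, was in the windows of 7 of 28 effectors. It was found in 82 of 27025 genes in the whole table and in 8 of 34 other interferon-stimulated genes.

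In the settings run for single effectors (scaling and added CPM), log2 ratios ranged between 0.24 and 1.81, and 0 effectors were called lower in any setting. Of 538 recomputed values 459 kept their value or count within its limits, 78 moved beyond them and 1, the receptor median, did so with a change of sign. The limit was a factor of 1.5 for counts and the counting interval for log2 ratios of effectors. Of the 35 single effectors, 33 moved with scaling by macrophage marker counts. With total counts, or with those markers without Lyz2, 9 moved, and 0 did with each remaining scaling or added CPM. No paired analysis was possible because there was no second library of either genotype, and no library could be left out. A depth of 3 counts limits what can be said of Isg15 and the interferon genes.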

Other observations

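Some other interferon-stimulated genes had few counts, as Isg15 did, and are named here because of their values. The antigen-processing genes Psmb8 (18 reads in KO and 9 in WT), Psmb9 (28 in KO and 7 in WT), Tap1 (54 in KO and 20 in WT) and Tap2 (40 in KO and 32 in WT) stood far below Psmb10, a related immunoproteasome gene, with 1005 reads in KO and 691 in WT. Psmb9 and Tap1 are among the other interferon-stimulated genes called higher. Gm9706, which RefSeq lists as a pseudogene, had 7 reads in KO and 3 in WT.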
